A study of Mus musculus with 6 samples.

Results

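The clock output transcription factors examined here are 8 genes, Dbp, Tef, Hlf, Nfil3, Bhlhe40, Bhlhe41, Ciart and Rora, of 43629 genes counted in the left ventricle. They were taken by gene symbol, and all 8 were found and had enough counts to be tested. Hearts came from male CD-1 mice, an outbred stock that were 1 year old. For 3 of them the dam had been given normal saline (vehicle) once daily by i.p. injection, and for the other 3 the dam had received 20 mg/kg caffeine in the same way. No genetic change was made in either group. Treatment ran from embryonic day (E) 6.5 to 9.5, and 1 field of the sample labels ends it at E10.5 instead. The mice themselves received no caffeine after birth, so the comparison is of adult hearts long after exposure. The sources used here give neither the litter of each mouse nor the hour at which the hearts were taken, so hearts may share a litter. The p-values of the fits set the treatment difference against the spread between hearts within a treatment, not between litters. The genes were selected on their known place in the clock and on their caffeine-to-vehicle fold changes in these same counts. Those fold changes are therefore given as a description of the members and support nothing further.

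The circadian clock of each cell is a feedback loop in which CLOCK and BMAL1 (the product of Arntl) activate genes through E-boxes, and the PER and CRY proteins repress them. The loop passes its rhythm on through output factors. DBP, TEF and HLF, the PAR bZIP proteins, are closely related activators that bind D-boxes, and NFIL3 (E4BP4) represses through the same sites. BHLHE40 and BHLHE41 (DEC1 and DEC2) and CIART (CHRONO) repress at E-boxes, and RORA activates genes such as Arntl through ROR elements. In the heart, RNA of many of these genes normally swings over the day, so a single collection time gives a single phase of each.

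The start-site sequences of the PAR bZIP genes and of Ciart are printed to show where the E-box letters CACGTG fall just before these starts. Each is the 250 bases before a RefSeq start on GRCm38.p6, 5′ to 3′ on the gene's strand, in lower case with the motifs found in capitals. Dbp lies at chr7:45704997-45705246 (plus strand), the upstream Tef start at chr15:81802423-81802672 and the downstream one at chr15:81811164-81811413 (plus strand), Hlf at chr11:90390918-90391167 (minus strand) and Ciart at chr3:95882229-95882478 (minus strand).
Dbp: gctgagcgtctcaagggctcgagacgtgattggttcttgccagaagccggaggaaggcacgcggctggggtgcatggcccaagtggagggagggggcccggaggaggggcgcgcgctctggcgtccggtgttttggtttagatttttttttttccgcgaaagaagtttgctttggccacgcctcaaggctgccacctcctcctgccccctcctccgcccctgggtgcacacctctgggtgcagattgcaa
Tef, upstream start: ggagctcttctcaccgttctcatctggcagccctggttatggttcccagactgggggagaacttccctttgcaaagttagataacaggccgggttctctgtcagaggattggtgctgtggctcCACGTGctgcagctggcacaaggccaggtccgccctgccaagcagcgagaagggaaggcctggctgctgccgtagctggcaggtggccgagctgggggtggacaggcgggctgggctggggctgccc
Tef, downstream start: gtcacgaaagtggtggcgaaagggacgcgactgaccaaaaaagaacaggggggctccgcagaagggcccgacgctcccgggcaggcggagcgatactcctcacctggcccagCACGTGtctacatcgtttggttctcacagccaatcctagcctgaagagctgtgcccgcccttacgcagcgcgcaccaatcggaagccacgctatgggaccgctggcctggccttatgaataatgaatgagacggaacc
Hlf: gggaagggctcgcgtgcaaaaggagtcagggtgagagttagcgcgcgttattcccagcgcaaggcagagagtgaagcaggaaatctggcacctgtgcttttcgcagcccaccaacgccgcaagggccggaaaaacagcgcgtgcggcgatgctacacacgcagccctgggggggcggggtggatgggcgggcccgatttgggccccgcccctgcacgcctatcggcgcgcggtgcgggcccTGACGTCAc
Ciart: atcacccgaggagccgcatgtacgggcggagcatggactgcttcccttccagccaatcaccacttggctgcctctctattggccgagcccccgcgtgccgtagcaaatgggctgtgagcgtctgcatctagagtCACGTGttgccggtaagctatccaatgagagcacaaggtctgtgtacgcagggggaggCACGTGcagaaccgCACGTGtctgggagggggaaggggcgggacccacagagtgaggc
Ciart held CACGTG, the E-box, at 3 places, beginning 116, 58 and 44 bases before its start. Both Tef windows held it once, 127 and 138 bases before the start, and Bhlhe41 held it once, 153 bases before. The Hlf and Dbp windows had no such match, nor did those of Nfil3 and Rora. Of all 32851 windows of this length, 6.02% held an E-box. The D-box, searched as TTANGTAA on both strands, was in 0 of the members' 8 windows and in 2.06% of all windows. The Hlf window carried TGACGTCA, the cAMP response element, beginning 9 bases before its start, a motif searched after the sequence had been seen and present in 1.55% of all windows. The Nfil3 window held TAGGTCA, the core of a ROR element, beginning 12 bases before the start, as did 2.23% of all windows on either strand. RefSeq windows were matched for 7 of the 8 members, all but Bhlhe40. A match in these letters is a description of the sequence and not a bound site, and a window without a match leaves the rest of the gene unsearched.

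Of the 3 PAR bZIP factors only Hlf lay apart between the treatments, while the groups overlapped for Dbp and Tef. By its point estimate Tef was also lower in caffeine-treated hearts, and Dbp was higher. Hlf (ENSMUSG00000003949, chr11:90336536-90390895) had 38.98, 41.92 and 46.7 CPM (read counts scaled to a common library size with TMM factors) in vehicle controls 1 to 3, and 20.16, 34.99 and 23.92 CPM in caffeine-treated hearts 1 to 3. Every caffeine-treated heart was below every vehicle heart, and caffeine-treated heart 2 lay close under the lowest control. The means were 42.5 ± 3.90 CPM in vehicle and 26.4 ± 7.71 CPM in caffeine-treated hearts (SD, n = 3). That is a log2 fold change of -0.68 (standard error 0.17, 95% interval -1.07 to -0.30), or 0.623 times the vehicle level. These are raw counts of 399, 443 and 461 against 144, 310 and 204, far above the 3 counts taken as the limit of detection. In bulk tissue, fewer cells that express a gene and less RNA per cell cannot be told apart.

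Dbp, the founding member of the PAR bZIP group, had 77.77, 93.97 and 67.57 CPM in vehicle and 100.79, 75.4 and 101.9 CPM in caffeine-treated hearts. Its highest values were caffeine-treated hearts 1 and 3, the hearts lowest in Hlf, and the groups overlapped. The log2 fold change was 0.21 (standard error 0.14, 95% interval -0.10 to 0.53). Of the 2993 bases in Dbp exons, 539 also lie in exons of Sphk2 on the opposite strand, and the library kit does not mark strand, so reads there cannot be assigned to either gene.
Tef, a PAR bZIP activator with the most counts of the 8 genes, had 228.71, 210.55 and 193.8 CPM in vehicle and 183.95, 192 and 209.09 CPM in caffeine-treated hearts. The groups overlapped, with a log2 fold change of -0.11 (standard error 0.09, 95% interval -0.32 to 0.09). The interval of Tef reaches down to -0.32 and that of Hlf up to -0.30, and the difference between the genes was not tested because the contrast chose them.

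**Figure D1:**
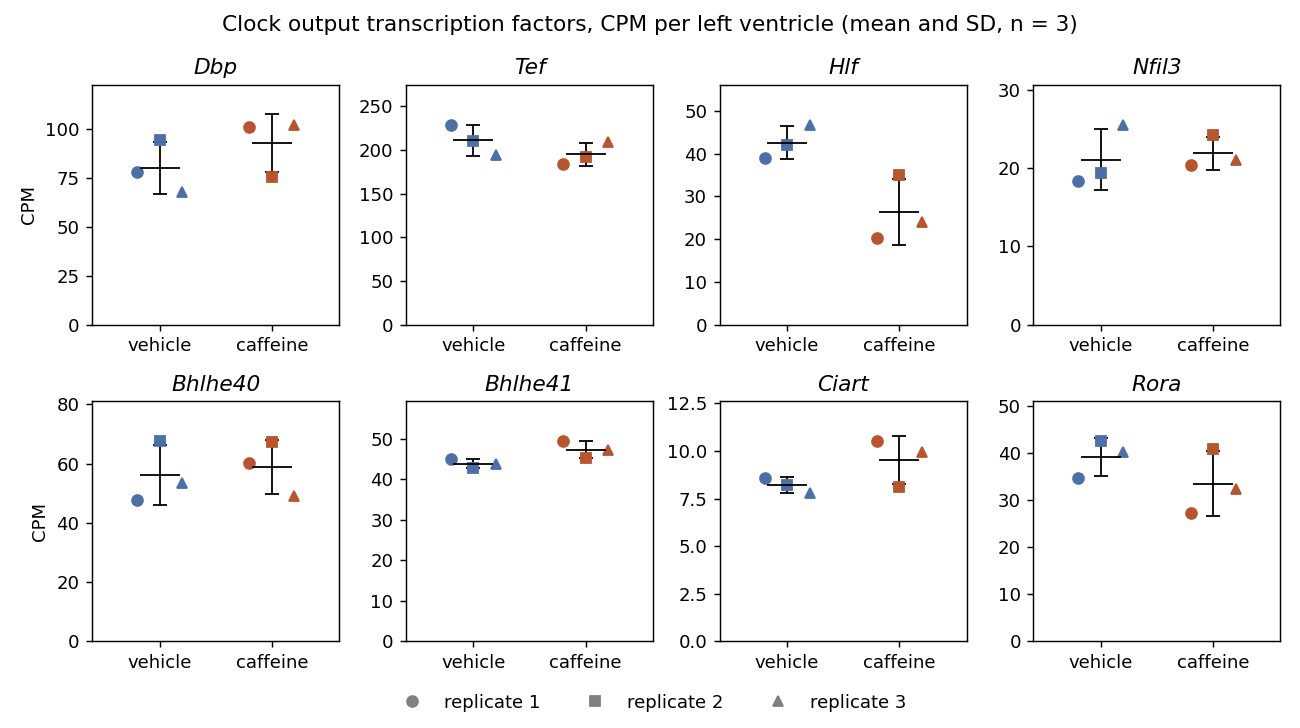
CPM (vertical axis, from 0) of the 8 members in vehicle and caffeine-treated hearts. Points are single hearts with the shape giving the replicate number, and bars give the mean and SD (n = 3). Hlf is at or below 34.99 CPM in all caffeine-treated hearts and at or above 38.98 CPM in all vehicle controls, while Dbp and Tef overlap.

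Read per length, the PAR bZIP genes made up nearly the same total in both treatments, with a smaller part from Hlf after caffeine. The sum of the 3 genes was 59.8 ± 5.20 CPM per kilobase of exon in vehicle and 59.7 ± 4.70 in caffeine-treated hearts (SD, n = 3). The part contributed by Hlf was 9.58%, 9.74% and 12.9% in vehicle hearts and 5.02%, 9.55% and 5.58% in caffeine-treated hearts. Caffeine-treated heart 2 sat just under the lowest control, and the other caffeine-treated hearts were well below. The ratio of Hlf to Dbp was 0.225, 0.2 and 0.31 in vehicle and 0.0896, 0.208 and 0.105 in caffeine-treated hearts, which overlap through caffeine-treated heart 2. Hlf to Tef overlapped in the same way, with 0.240 ± 0.042 in vehicle and 0.160 ± 0.048 in caffeine-treated hearts (SD, n = 3). Dbp to Tef was 0.993 ± 0.153 in vehicle and 1.25 ± 0.207 in caffeine-treated hearts, also overlapping.

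**Figure D2:**
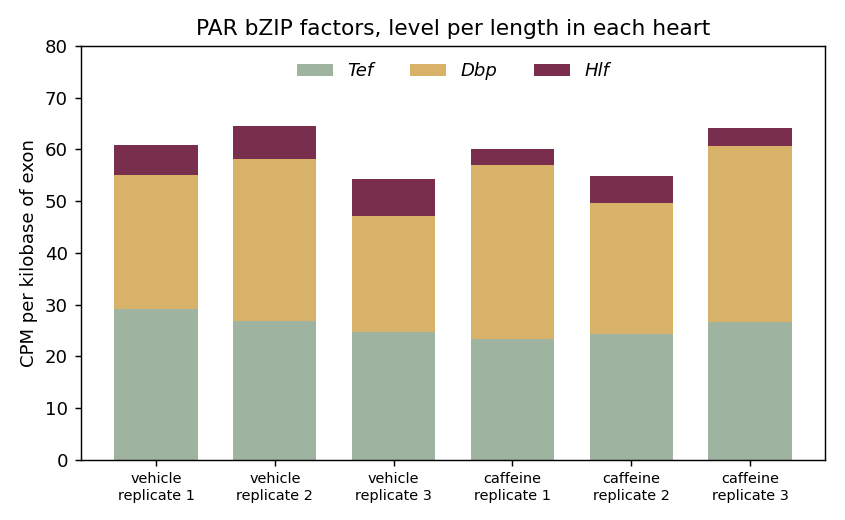
Level per length (CPM per kilobase of exon, bars from 0) of Tef, Dbp and Hlf stacked for each of the 6 hearts. The stacks reach 54.2 to 64.4 in vehicle and 54.8 to 64.2 in caffeine-treated hearts, with Hlf the top and thinnest layer.

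The D-box repressor Nfil3 had 18.37, 19.4 and 25.53 CPM in vehicle and 20.44, 24.27 and 20.99 CPM in caffeine-treated hearts. Its values interleaved, with a log2 fold change of 0.06 (standard error 0.15) whose sign turned with scaling by library size alone (-0.03). The PAR bZIP sum per Nfil3, both per length, was 5.92 ± 1.40 in vehicle and 5.58 ± 0.874 in caffeine-treated hearts (SD, n = 3), again overlapping.

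Among the E-box repressors, the log2 fold changes lay between 0.07 and 0.21. Ciart, which binds BMAL1 and represses CLOCK and BMAL1, had 8.6, 8.23 and 7.8 CPM in vehicle and 10.5, 8.13 and 9.97 CPM in caffeine-treated hearts. Caffeine-treated hearts 1 and 3 were above all controls and heart 2 was among them (log2 fold change 0.21, standard error 0.16). Bhlhe41 had the narrowest relative range of the members over the 6 hearts, at 45.04, 42.68 and 43.76 CPM in vehicle and 49.28, 45.15 and 47.26 CPM in caffeine-treated hearts. Its groups did not overlap, by the narrow step from 45.04 to 45.15 CPM, and its log2 fold change was 0.11 (standard error 0.09). Bhlhe40 had 47.68, 67.47 and 53.29 CPM in vehicle and 60.34, 67.16 and 49.13 CPM in caffeine-treated hearts. Its groups covered nearly the same range, with a log2 fold change of 0.07 (standard error 0.15) that became -0.02 with scaling by library size alone.
Rora, the activator at ROR elements, had 34.68, 42.39 and 40.22 CPM in vehicle and 27.16, 40.86 and 32.37 CPM in caffeine-treated hearts. As with Hlf, caffeine-treated hearts 1 and 3 were below all controls, but heart 2 was above the control median, and the log2 fold change was -0.22 (standard error 0.15, 95% interval -0.54 to 0.10).

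In edgeR's quasi-likelihood test of all 13092 genes that passed the count filter, 0 of the 8 members passed both thresholds, an adjusted p below 0.05 and a fold change above 1.5. Over all genes tested 0.107% passed, 11 genes (0.084%) higher and 3 (0.0229%) lower in caffeine-treated hearts, a split of 12 higher and 15 lower with scaling by library size alone. At an unadjusted p under 0.05 there was 1 member, Hlf, against 8.82% of all genes. The members' Benjamini-Hochberg adjusted p-values ran from 0.23 (Hlf) to 0.954 (Nfil3) in that edgeR fit. Hlf was past both thresholds with edgeR's exact test (adjusted p = 0.0349), with DESeq2 (adjusted p = 0.0325) and with no count filter. Those fits passed more genes in all, at 94, 67 and 240 (the last of 22407 tested), against 14 in the main fit. Hlf also passed with caffeine-treated heart 2 left out (22 genes in all), where its log2 fold change was -0.945. With each of the other hearts left out it was between -0.74 and -0.53 and did not pass. Of the 8 members 3 were lower and 5 higher in caffeine-treated hearts. Their log2 fold changes had a median of 0.06, beside 0.00 for all genes, of which 49.8% were lower. The groups did not overlap for 2 of the 8, against 14.2% of all genes. Hlf was the member below (7.12% of all genes) and Bhlhe41 the member above (7.11%). None of these counts is evidence about the members, since the contrast chose them.

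**Figure D3:**
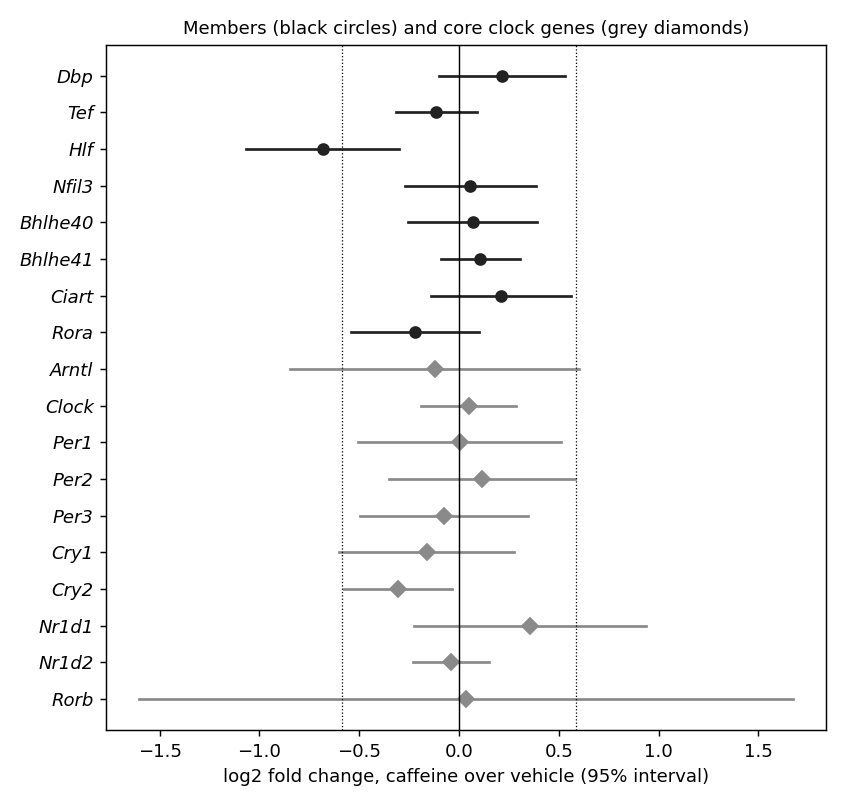
Log2 fold change of caffeine-treated over vehicle hearts (horizontal axis) with its 95% interval for the 8 members (circles) and the 10 tested core clock genes (diamonds). Dotted lines mark a fold change of 1.5, which Hlf alone passes by its point estimate (-0.68).

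Per length, Dbp and Tef were the most abundant members, and Rora and Ciart the least. Over the 6 hearts Dbp averaged 28.8 ± 4.85 and Tef 25.8 ± 2.07 CPM per kilobase of exon (SD), and their ranges overlapped. Bhlhe40 (12.2 ± 1.87) and Nfil3 (10.6 ± 1.39) came next and overlapped as well. Bhlhe41 averaged 6.78 ± 0.36 and Hlf 5.16 ± 1.56, and they overlapped across all hearts, as did Hlf and Ciart. In vehicle controls these were within the spread of each other, at 6.52 ± 0.18 and 6.37 ± 0.58, whereas in caffeine-treated hearts Hlf was at 3.95 ± 1.15, nearer to Ciart at 4.22 ± 0.55 (SD, n = 3). Rora averaged 2.78 ± 0.45 over the 6 hearts and Ciart 3.92 ± 0.49, and the Rora range stayed below that of Ciart. The order of the members was the same with the longest transcript as the length, but the levels were not. Vehicle means then stood at 43.4 for Dbp, 47.9 for Tef and 7.54 for Hlf, beside 26.7, 26.8 and 6.37 with exon length. The PAR bZIP sums, parts and ratios above therefore depend on the length used.

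The core loop upstream of these factors was read from its own genes. Of the 12 core clock genes compared 10 were tested, and 0 passed in either direction in edgeR's quasi-likelihood test, with 1 at an unadjusted p under 0.05 (8.82% of all genes). Their median log2 fold change was -0.02, and in all 10 the groups overlapped. DESeq2, edgeR's exact test and the fit with no filter also called 0. The activators Arntl (-0.12, standard error 0.33) and Clock (0.05, standard error 0.11) were near 0 on the log2 scale. Among the repressors, Per1 stood at 0.00 (standard error 0.23), Per2 at 0.12 (0.21), Per3 at -0.08 (0.19) and Cry1 at -0.16 (0.20). Cry2, the other cryptochrome repressor, had the lowest p of the list, with 41.8 ± 5.64 CPM in vehicle and 33.8 ± 3.15 CPM in caffeine-treated hearts (SD, n = 3), with -0.31 on the log2 scale (edgeR adjusted p = 0.501). Nr1d1 (REV-ERB alpha), a repressor at ROR elements, varied most among the better-counted genes. It had 50.61, 49.3 and 29.38 CPM in vehicle and 81.61, 38.6 and 46.44 CPM in caffeine-treated hearts, and its log2 difference was 0.36 (standard error 0.26). Its relative Nr1d2 stayed between 86.23 and 99.26 CPM in all hearts (log2 fold change -0.04, standard error 0.09). Rorb, a relative of Rora, stood at 0.03 on the log2 scale (standard error 0.74) and was under 4.4 CPM in every heart. Arntl2 and Npas2 had too few counts to be tested.

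Genes known as PAR bZIP targets in liver, kidney and brain were partly silent in the heart. Of the 7 listed 4 were tested, and 0 passed in edgeR's quasi-likelihood test, 0 of them at an unadjusted p under 0.05, and 0 with DESeq2 or the exact test. Pdxk, which makes pyridoxal phosphate, stood at -0.30 on the log2 scale (standard error 0.15, 95% interval -0.64 to 0.04). Por, the electron donor of cytochromes P450, had -0.19 (0.10), and Alas1, which starts haem synthesis, -0.15 (0.14). The drug transporter gene Abcb1a had 0.07 (0.19). The hearts of the treatments overlapped in all 4. Cyp2a5 and Cyp7a1 had 0 counts in every heart, and Nr1i3 had 1 count in a single heart.
Of 10 clock-controlled genes of the heart, 0 passed in the quasi-likelihood test and 4 had an unadjusted p under 0.05, against 8.82% of all genes tested. Those 4 were all lower in caffeine-treated hearts. Log2 fold changes were negative in 7 of the 10 (49.8% of all genes), with a median of -0.17 beside 0.00 for all genes. In 3 of the 10 every caffeine-treated heart was below every control, as in 7.12% of all genes. Wee1, a cell cycle kinase under E-box control, was lowest, at 21.2, 26.59 and 21.78 CPM in vehicle and 12.04, 13.32 and 17.36 CPM in caffeine-treated hearts. Its groups did not overlap, with a log2 fold change of -0.70 (standard error 0.16, edgeR adjusted p = 0.183), and it passed with DESeq2, the exact test and no filter. The highest was Cdkn1a, with a log2 fold change of 0.05 (standard error 0.24).

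Within a treatment, the members did not all vary in the same direction. As deviations from the treatment mean in log2 CPM, caffeine-treated heart 2 was high in Hlf (0.45), Rora (0.31), Cry1 (0.41), Per2 (0.37) and Per3 (0.32). It was low in Dbp (-0.28), Ciart (-0.22), Nr1d1 (-0.45) and Arntl (-0.44). Caffeine-treated heart 1 deviated the other way in all 9 genes, by -0.34 for Hlf and 0.13 for Dbp. Thus Hlf and Dbp went opposite ways among caffeine-treated hearts, and the gap in Hlf between the treatments was smallest in the caffeine-treated heart with the least Dbp. Over the 6 hearts the deviations of Dbp and Hlf gave Pearson's r = -0.76 (exact permutation within treatments, two-sided p = 0.139) and Spearman's rho = -0.49 (exact permutation p = 0.389). Without the pair of hearts farthest from the Dbp median r was 0.25, so the relation rests on those hearts. Dbp and Tef gave r = 0.33 (exact permutation p = 0.528) and rho = 0.37 (exact permutation p = 0.583), and r = -0.51 without the outermost pair. Dbp and Arntl, which peak at opposed times in a running clock, gave r = 0.12 (exact permutation p = 0.833) and rho = 0.09 (exact permutation p = 0.972), and r = -0.67 without that pair. These 3 relations were the only ones tested, with Benjamini-Hochberg adjusted exact permutation p-values of 0.417 for Dbp and Hlf, 0.792 for Dbp and Tef and 0.833 for Dbp and Arntl, and 0.0278 is the smallest p the 36 labelings can give. The adjusted values for rho were 0.874, 0.874 and 0.972 by the same exact permutation. Some untested pairs of members were closer in size, with r = 0.93 for Hlf and Rora, -0.99 for Hlf and Ciart and -0.99 for Rora and Bhlhe41. Others were not, with -0.17 for Hlf and Tef and -0.12 for Tef and Rora. They are picked from many pairs over 6 hearts and given as a description.

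**Figure D4:**
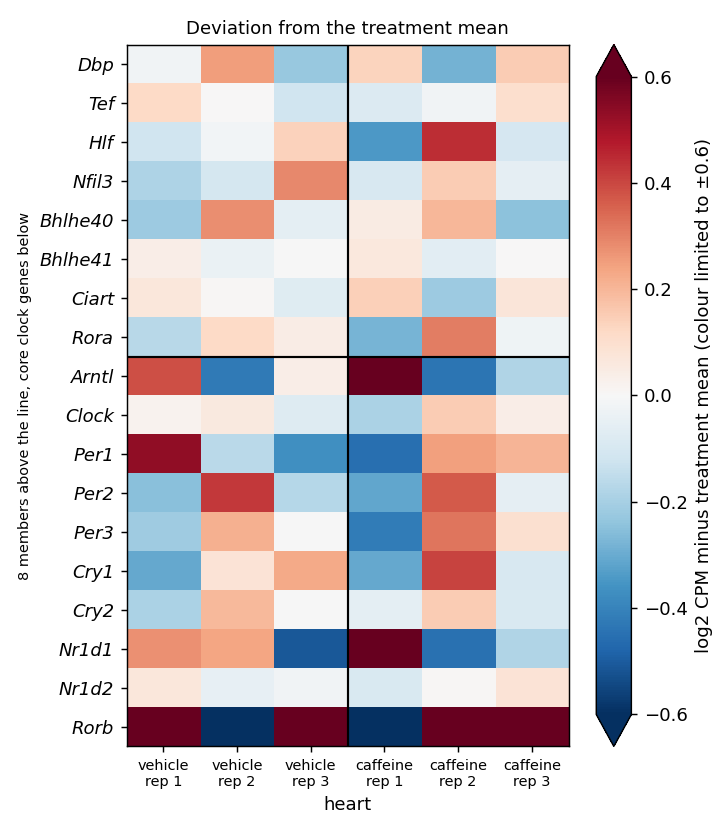
Deviation of log2 CPM from the treatment mean (colour) for the 8 members and the 10 core clock genes in the 6 hearts. Caffeine-treated heart 2 is high in Hlf (0.45) and low in Dbp (-0.28), and caffeine-treated heart 1 is the reverse.

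The genes whose deviations were most like those of Hlf, among 8271 genes with at least 10 CPM, were Mbnl1 (r = 0.997), Aspn (0.995), Tmem71 (0.993), Kat6a (0.992) and Metap2 (0.992). Those most like Dbp were Mfsd8 (0.996), Capg (0.996), Csf1 (0.994), Fads1 (0.994) and Rundc1 (0.99). None of these 10 is a clock gene of the lists used here. They were the highest of 8271 values over 6 hearts with the treatment means removed, and are given as a description. Of the listed clock genes the nearest to Hlf was Cry1 (r = 0.932, 129th) and then Rora (0.928, 136th).

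Library depth and other cell types were compared beside Hlf. Total counts ran from 9228359 to 10483101 in vehicle and from 7613011 to 9153997 in caffeine-treated hearts, without overlap. All 4 cardiomyocyte markers (Myh6, Tnnt2, Actc1, Ryr2) were detected, with summed levels of 32480 to 38820 CPM in vehicle and 30920 to 35590 CPM in caffeine-treated hearts. They differed in direction. Actc1 was higher in every caffeine-treated heart than in any control (log2 fold change 0.155). Myh6 (-0.31), Ryr2 (-0.25) and Tnnt2 (-0.11) were lower by their point estimates, with overlap. The 3 endothelial markers overlapped, at 475 to 547.9 CPM and 488.3 to 518.5 CPM. The summed level of the 3 fibroblast markers (Col1a1, Pdgfra, Dcn) did not overlap, at 573.5 to 668.6 CPM in vehicle and 700.3 to 861.8 CPM in caffeine-treated hearts. Dcn, with most of that sum, was the only 1 of them with groups apart (log2 fold change 0.28, edgeR adjusted p = 0.446). Col1a1 (0.38) and Pdgfra (0.21) were higher by their point estimates, but their groups overlapped. The 3 macrophage markers summed to 21.2 to 32.3 CPM in vehicle and 30.4 to 42.0 CPM in caffeine-treated hearts. Of these, Adgre1 (F4/80) had 4.98, 3.88 and 3.95 CPM in vehicle and 9.24, 5.76 and 9.62 CPM in caffeine-treated hearts, without overlap, and its log2 fold change of 0.93 (standard error 0.23, edgeR adjusted p = 0.226) was larger in size than that of Hlf. Csf1r was also higher in every caffeine-treated heart than in any control (log2 fold change 0.34, edgeR adjusted p = 0.608), while Cd68 overlapped (0.05). Adipocyte markers (0.506 to 1.86 and 0.113 to 0.469 CPM, with Adipoq and Plin1 at 0 in some hearts) and lymphocyte markers (0.405 to 0.568 and 0.700 to 0.903 CPM) stood near the detection limit of 0.286 to 0.394 CPM. The part of depth and cell makeup in the Hlf values was not tested. Atrial markers were at most 2.05 CPM in sum, with Myl7 and Sln at 0 in some hearts.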

How the data were processed

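Poly(A) RNA of 6 left ventricles was sequenced with single-end reads in a single run. After FastQC, the authors aligned reads to mm10 (GRCm38) using TopHat2, and HTSeq assigned them to the genes of Ensembl release 79. Each deposited file holds the raw counts per gene of 1 heart, not normalized. Tool versions and the strand setting are not given in the sources used here.

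From the counts, genes were kept by filterByExpr (minimum count 10, minimum total 15), leaving 13092, scaled by TMM (factors 0.94 to 1.072) and fitted with edgeR's quasi-likelihood test (glmQLFit, glmQLFTest) on treatment alone. The thresholds, adjusted p below 0.05 and fold change above 1.5, are the study's. The standard error is the absolute log2 fold change over the square root of F. CPM use TMM factors, and log2 CPM a prior count of 2. Positions and exon lengths are from GENCODE release 21 (mouse series M, GRCm38), matched for 42462 of 43629 identifiers, and promoters are from RefSeq (GRCm38.p6). Replicates differed by more than sampling noise (chi-square per degree of freedom 5.37 to 14.01). Labels number replicates 1 to 3 in both groups. Deviations of hearts with the same number correlated across genes at 0.045, -0.03 and -0.038, and those with different numbers at -0.083 to 0.12. Such values cannot settle whether hearts of the same number share a litter or batch, and the main fit used no pairing.

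The members and lists were chosen with earlier results of these data known, and 1 core clock gene beyond the 12 given is not reported here. Named are the members, the tested core clock and PAR bZIP target genes, the extremes of other lists, and the 5 genes most like Hlf and Dbp. On simulated counts the quasi-likelihood test recovered 69 of 99 genes changed by 1 and 99 of 99 changed by 2 on the log2 scale, with 13 false calls. The exact test recovered 77 and 99 with 18 false calls, and DESeq2 66 and 97 with 10. Both sizes exceed the log2 fold change of Hlf (-0.68), so recovery at the members' sizes was not tested. Versions were R 4.3.3, edgeR 4.0.16, DESeq2 1.42.0 and Python 3.11.15. Detection limits (3 counts) cover counting error only. Alternatives were other scalings, no filter, edgeR's exact test, DESeq2, a replicate block and leaving out each heart.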

Additional observations from a re-analysis of the deposited data

How the results depend on the processing

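The calls rested on 3 hearts against 3 with 7613011 to 10483101 counts each, and how they vary with depth was not tested. The count of genes past both thresholds, 14 (11 higher, 3 lower), became 27 (12 higher, 15 lower) with scaling by library size alone, 240 with no count filter, 94 with edgeR's exact test and 67 with DESeq2, and in a fit with replicate number as block it was 40. That block left Hlf uncalled and changed no call of a member. With 1 heart left out the count ran from 4 to 28. Hlf stayed lower in every alternative. Its log2 fold change was -0.70 with no filter, -0.69 with the exact test and -0.68 with DESeq2, all past both thresholds, and -0.945 to -0.53 with 1 heart left out, past them without caffeine-treated heart 2. Members lower in caffeine-treated hearts numbered 3, and 5 with library size alone, and 3 to 5 with 1 heart left out. Nfil3 changed sign with library size alone (-0.033) and without vehicle replicate 1, vehicle replicate 2 or caffeine replicate 2 (-0.033 to 0.215 over the 6 hearts left out). Bhlhe40 did so with library size alone (-0.023) and without vehicle replicate 1 or caffeine replicate 2 (-0.04 to 0.222). The within-treatment r ran from -0.10 to 0.59 for Dbp and Tef, from -0.95 to -0.36 for Dbp and Hlf and from -0.47 to 0.70 for Dbp and Arntl with 1 heart left out. Dbp and Tef reversed without vehicle replicate 3, and Dbp and Arntl without caffeine replicate 1 or 2. DESeq2-type size factors and a prior count of 0.5 changed no direction or call of these. The cause of each change was not tested. Leaving out a heart also lowers the number of hearts, and dropping the filter raises the number of genes tested.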

Other observations

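Stress hormone and relative gene lists were compared in the same fit. Of 8 glucocorticoid-induced genes 0 passed both thresholds in edgeR's quasi-likelihood test, 3 had an unadjusted p under 0.05 (8.82% of all genes tested), and DESeq2 and the exact test called 0. Mt2, a metal-binding metallothionein, was highest, at 101.9, 95.76 and 86.01 CPM in vehicle and 170.23, 96.62 and 202.99 CPM in caffeine-treated hearts (log2 fold change 0.73, standard error 0.21, edgeR adjusted p = 0.297), and caffeine-treated heart 2 was again the one among the controls. It was called with no filter and without caffeine-treated heart 2. Fkbp5, a chaperone of the glucocorticoid receptor, was lowest, at 149.28, 100.4 and 114.17 CPM in vehicle and 95.33, 61.06 and 95.46 CPM in caffeine-treated hearts (log2 fold change -0.53, standard error 0.18, edgeR adjusted p = 0.384). The list held 4 positive and 4 negative log2 fold changes (median -0.04).

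Of 6 relatives of Bhlhe40 in the bHLH-Orange family, 5 were tested and 0 passed in the quasi-likelihood test, 0 of them at an unadjusted p under 0.05, and DESeq2 and the exact test called 0. Hes1, a Notch-driven repressor, was highest (log2 fold change 0.20, standard error 0.15). Hey2, a Notch-pathway repressor, was lowest, at 6.15, 7 and 6.99 CPM in vehicle and 5.04, 5.87 and 4.69 CPM in caffeine-treated hearts. Its groups did not overlap (log2 fold change -0.37, standard error 0.19, edgeR adjusted p = 0.62). In this list 1 gene, Hey2, lay wholly below the controls (7.12% of all genes), and 1 other lay wholly above (7.11%).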
